A study of Prunus persica with 24 samples.

Results

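In peach (Prunus persica) fruit flesh, 161 of 26873 gene identifiers had RNA that fell strongly during storage after harvest, whether the fruit was held at 25 °C or at 35 °C. A member was required to lose at least 2.5 on the scale of log2(FPKM + 1), at 25 °C and also at 35 °C, between day 1 and a late level averaged over days 5, 6 and 7. FPKM counts sequenced fragments per kilobase and corrects for the size of the library. In addition, the difference between the temperatures, averaged over days 2 to 7, had to stay under 1 on the same scale in either direction. These values chose the members, so the size of the fall is given as a description without a test. Of the identifiers, 15435 had at least 1 FPKM in at least 2 of 12 columns and are called tested below, and all 161 members are among them, or 1.04% of tested genes. A fall of at least 2.5 was found in 371 identifiers at 25 °C (2.40% of tested genes) and in 385 at 35 °C, of which 384 were tested (2.49%). The 215 with such a fall at both temperatures lost 54 to the limit on the difference.

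After 2 days at 5 °C, the harvested fruit was split at random between storage at 25 °C and 35 °C. Total RNA of the flesh was depleted of ribosomal RNA and sequenced from strand-specific libraries on an Illumina HiSeq. Flesh was sampled on days 1, 2, 3, 5, 6 and 7, and the labels list 24 libraries, 2 for each of 12 combinations of temperature and day. The deposited tables hold 1 value per gene for each combination, so no value has a replicate error and no difference between single days could be tested. A gene is said to be called here when 2 values differ by at least 2-fold, that is by at least 1 on the log2 scale. No cultivar or number of fruit is given in the labels, and flesh markers could not be checked because the identifiers carry no product names.

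Peach is a climacteric fruit, which ripens after harvest with a burst of the gaseous hormone ethylene and softens as enzymes take apart the pectin of its cell walls. The amount of a messenger RNA at any time reflects how fast it is made and how fast it is degraded, so a fall can follow from less transcription, faster decay or both. In bulk flesh, fewer cells of a type and less RNA per cell cannot be told apart. The members are known by identifier alone, because 0 identifiers matched the RefSeq gene table, and no function or sequence is given for any of them.

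At the start of storage the members were well expressed genes, which the rule partly imposes. A fall of at least 2.5 in log2(FPKM + 1) cannot occur in a gene with little RNA on day 1. On day 1 the median member stood at 32.3 FPKM at 25 °C (lowest 5.09, highest 5916) and at 40.3 FPKM at 35 °C (lowest 5.33, highest 5244). A mean of at least 100 FPKM over both day 1 columns was reached by 38 members, at least 1000 FPKM by 8, and 20 stayed under 10 FPKM. Together the members made up 3.91% of the summed FPKM at 25 °C on day 1 and 4.36% at 35 °C. By day 6 the shares were 0.197% and 0.183%, and a drop is implied by the rule. The sums lean on a few genes. Prupe.7G161100 alone gave 5916 of the members' 32195 FPKM on day 1 at 25 °C. Identifiers with identical values, such as Prupe.5G073200 and Prupe.5G073300, were each counted.

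The median course shows where the temperatures parted. At 25 °C the median member was listed at 32.3 FPKM on day 1, 11.3 on day 2, 2.45 on day 3, and 1.96, 0.946 and 1.32 FPKM on days 5, 6 and 7. At 35 °C the same median was 40.3 FPKM at first, 3.88 on day 2 and 2.097 on day 3, and then 3.30, 0.739 and 2.77 FPKM. The median of 3.88 FPKM seen at 35 °C on day 2 was thus passed at 25 °C only between days 2 and 3. Further loss followed at both temperatures. Day 6 held the lowest median at both temperatures. On days 5 and 7 the median at 35 °C was above that of the preceding sampled day, and at 25 °C this was seen on day 7 only.

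**Figure D1:**
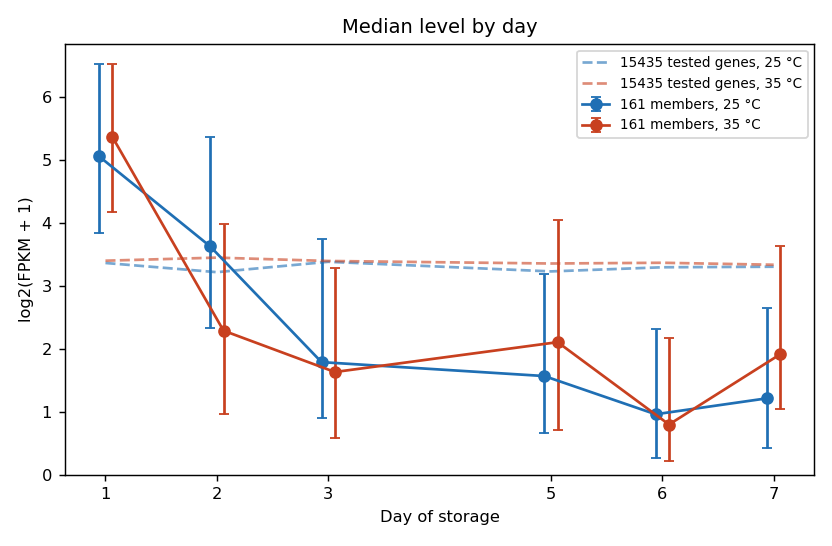
Median log2(FPKM + 1) by day of storage for the 161 members (circles, bars from the lower to the upper quartile) and for all 15435 tested genes (dashed lines), at 25 °C in blue and 35 °C in red. The members start above the tested genes on day 1 and lie below them from day 3 onwards, and on day 2 the 35 °C median is lower than that at 25 °C.

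The size of the fall, which the rule fixed to be at least 2.5, had a median of -3.49 on the log2 scale at 25 °C, against -3.29 at 35 °C. The extremes were -8.40 and -6.91. A change of -4 or below was listed for 47 members at 25 °C and for 43 at 35 °C. The median over all tested genes was close to 0, at -0.000667 and -0.00793. Falls at the 2 temperatures were related across members (Pearson r = 0.743 over 161 genes, which share columns and are not replicates). The rule limited both falls and the mean difference between the temperatures, so this relation can follow from the choice of members. Larger falls went with higher day 1 levels (r = 0.555 across members), and a gene with little RNA on day 1 has little to lose on this scale.

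The limits of the rule cut through a continuum. Just inside the limit on the fall were Prupe.3G074000, with -2.67 at 25 °C and -2.501 at 35 °C, and Prupe.7G125900, with -2.505 and -2.80. Just outside were Prupe.1G038100, with -2.49 at 25 °C and -3.20 at 35 °C, and Prupe.5G163800, with -2.49 and -2.96. Within 0.25 of the limit lay 40 members on the inside and 58 identifiers on the outside. On the limit for the difference between temperatures, Prupe.6G166000 was the nearest member at 0.985 and Prupe.1G341600 the nearest identifier left out at 1.00.

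The most abundant member, Prupe.7G161100, shows the course at its steepest. At 25 °C it was listed at 5916, 663 and 119 FPKM on days 1, 2 and 3, and at 27.6, 7.97 and 19.9 FPKM on days 5, 6 and 7. At 35 °C it stood at 5244, 383 and 96.7 FPKM early on, and then at 16.8, 5.24 and 747 FPKM. The values of the 2 temperatures ran side by side down to day 6 and then separated. This gene also had the largest mean fall, with log2 changes of -8.40 and -6.91.

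Prupe.5G073200 and Prupe.5G073300 carried the same values throughout and amount to 1 measurement. At 25 °C they were listed at 2694, 681, 635, 200, 64.7 and 77.7 FPKM over the 6 sampled days. At 35 °C the values were 2738, 815, 110, 64.1, 59.1 and 194 FPKM on the same days. Day 2 was alike at the 2 temperatures, and day 3 was several times lower at 35 °C. The second largest fall belonged to Prupe.4G039200, which went from 405 FPKM through 58.5, 10.1, 8.13 and 0.166 to 1.43 FPKM at 25 °C. At 35 °C it went from 586 FPKM through 6.55, 0.494, 11.6 and 3.05 to 25.2 FPKM. Its day 2 and day 3 values were lower at 35 °C, and those of days 5 to 7 were higher.

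Not every member approached 0. The highest late level was that of Prupe.8G109700, which started at 1623 FPKM at 25 °C and then held between 239 and 456 FPKM. At 35 °C it started at 2209 FPKM and later ranged from 217 to 594 FPKM. Prupe.1G246000 declined without a break at 25 °C, from 1586 FPKM through 792, 322, 241 and 120 to 59.6 FPKM. At 35 °C it went from 1048 FPKM to 371 on day 2 and 167 on day 3, and then lay between 133 and 160 FPKM.

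**Figure D2:**
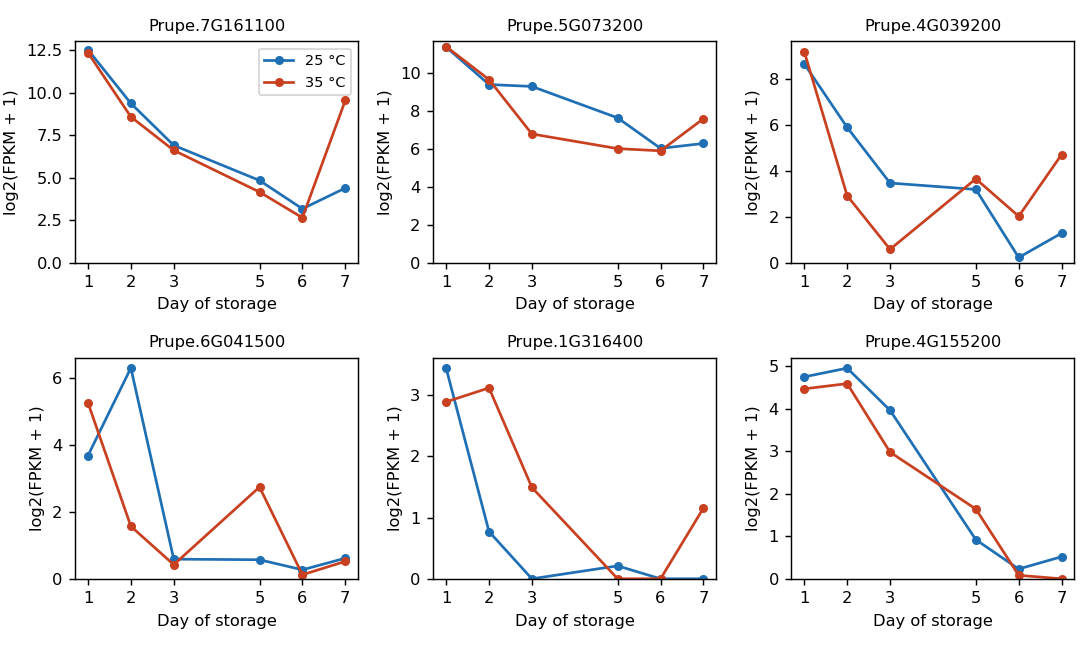
Course of 6 members named in the text, as log2(FPKM + 1) against day of storage, at 25 °C in blue and 35 °C in red, with 1 value per point. Prupe.7G161100 shows near parallel falls and a high value on day 7 at 35 °C, Prupe.6G041500 a peak on day 2 at 25 °C alone, and Prupe.4G155200 no fall until after day 2 at both temperatures.

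The question put to these genes was how the pace of the fall compared between the temperatures. On day 2 the median member retained 29.6% of its day 1 FPKM at 25 °C (quartiles 17.5% and 47.6%) and 9.05% at 35 °C (quartiles 3.25% and 22.7%). On day 3 the median was 8.73% at 25 °C and 5.76% at 35 °C. A smaller share was retained at 35 °C by 132 of 161 members on day 2 and by 104 on day 3. In a wider set of 786 falling genes, described below, the counts were 489 of 786 on day 2 and 440 of 786 on day 3. Counts over all tested genes are not given here, so those of the members cannot be set against them. Each of these ratios compares 2 single values, and days 2 and 3 entered the choice of members only through the mean difference between the temperatures. The day 1 values entered that choice through the fall.

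The pace was also expressed as the part of each member's own log2 fall reached on a given day. By day 2 the median member had reached 42.1% of its fall at 25 °C (range -81.9% to 91.8%) and 87.8% at 35 °C (range -38.8% to 162%). By day 3 the medians were 88.9% and 98.9%. Values above 100% mean a level below the mean of days 5, 6 and 7, and negative values a level above day 1. The share by day 2 was larger at 35 °C in 136 members, or 84.5%, and larger at 25 °C in 25. The median difference was 39.9 percentage points on day 2 and 14.9 on day 3. A lead of more than 25 percentage points on day 2 was found for 35 °C in 107 members and for 25 °C in 6. Across members, the shares on day 2 at the 2 temperatures were weakly related (r = 0.211 over 161 genes). A late level that includes renewed rises at 35 °C makes the share there larger. Day 6 alone as the late level was an alternative added after the data were seen. The median difference was then 28.7 percentage points on day 2 and 3.47 on day 3. The share was then larger at 35 °C in 81.4% of members on day 2 and in 55.9% on day 3. With the late level of the rule, these values were 84.5% and 77.0%.

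**Figure D3:**
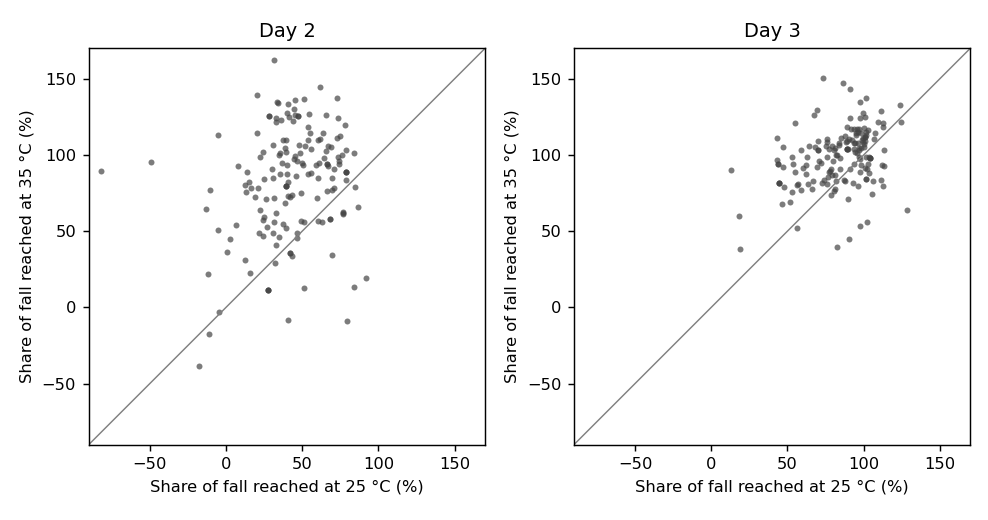
Share of each member's log2 fall reached on day 2 (left) and day 3 (right), in percent, at 25 °C on the horizontal and 35 °C on the vertical axis, with 1 point per member and a grey line of equality. On day 2 136 of 161 points lie above the line, and on day 3 124 do.

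Counted by the sampled day on which 50% of the fall was first reached, 62 members got there on day 2, 87 on day 3 and 12 on day 5 when held at 25 °C. When held at 35 °C, 133 did so on day 2, 26 on day 3 and 2 on day 5. The day was earlier at 35 °C for 84 members, the same for 71 and later for 6. For 90% of the fall, 1 member had arrived on day 2 at 25 °C and 74 at 35 °C. The day of 90% was earlier at 35 °C for 116 members, the same for 28 and later for 17.

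Against day 1, 121 of 161 members were at least 2-fold lower on day 2 at 25 °C, where 6.72% of all tested genes were. At 35 °C 148 members were lower on day 2, against 9.99% of tested genes. These comparisons share the day 1 columns with the rule, and the counts are descriptions. On day 2, 112 members were at least 2-fold lower at both temperatures, 36 at 35 °C only, 9 at 25 °C only and 4 at neither. The same split over all tested genes is not given here, so the overlap cannot be set against theirs. By day 3 the counts were 158 members at 25 °C (8.51% of tested genes) and 160 at 35 °C (12.4%). On day 5 they were 160 (10.4%) and 157 (11.1%). All 161 were at least 2-fold lower on day 6 at 25 °C (12.5% of tested genes) and at 35 °C (13.4%), and likewise on day 7 (12.3% and 11.9%). Days 5, 6 and 7 also set the late level of the rule, so near complete counts on these days follow from the choice of members.

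Taken step by step, the early losses came in 2 stages at 25 °C and mostly in 1 at 35 °C. The step from day 2 to day 3 took 97 members at least 2-fold down at 25 °C (4.35% of tested genes) and 1 up (2.71%). At 35 °C it took 45 down (3.63%) and 7 up (2.22%). From day 3 to day 5, 24 members were lower at 25 °C (2.31%) and 16 at 35 °C (3.27%). From day 5 to day 6, 37 were lower and 3 higher at 25 °C (5.40% and 3.29% of tested genes). At 35 °C this step took 59 down and 0 up (3.35% and 1.72%). The last step, from day 6 to day 7, took 6 members down at 25 °C (3.42%) and 1 at 35 °C (1.74%).

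Set side by side on each day, the temperatures differed most on day 2. On day 1 the median member was higher at 35 °C by 0.20 on the log2 scale, with 15 members at least 2-fold higher there (0.862% of tested genes) and 6 lower (3.07%). On day 2 the median difference, 35 minus 25 °C, was -1.05. Of the members, 84 were at least 2-fold lower at 35 °C, against 9.17% of tested genes, and 9 were higher, against 13.0%. All tested genes together had a median of 0.19 on that day, which became 0.04 after rescaling of the columns, and the members' median then was -1.22. On day 3 the members' median was -0.18, with 22 lower at 35 °C (7.53% of tested genes) and 8 higher (6.48%). The sign turned late in storage. The median was 0.19 on day 5 with 34 members higher at 35 °C (6.16% of tested genes) and 12 lower (6.95%), -0.07 on day 6 with 15 lower (5.16%) and 12 higher (6.25%), and 0.78 on day 7, when 66 were higher (6.31%) and 11 lower (4.59%). The rule bounds the average of these differences over days 2 to 7, so the single days were not free of the choice of members. Before this bound, 126 of the 215 genes that fell by at least 2.5 at both temperatures were at least 2-fold lower at 35 °C on day 2 and 11 were higher. On day 7, 80 of the 215 were at least 2-fold higher at 35 °C, and the median difference of the 215 was 0.47. The 54 genes removed by the bound had a median difference of -0.98 on day 7, so as a set they did not share the change of sign.

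**Figure D4:**
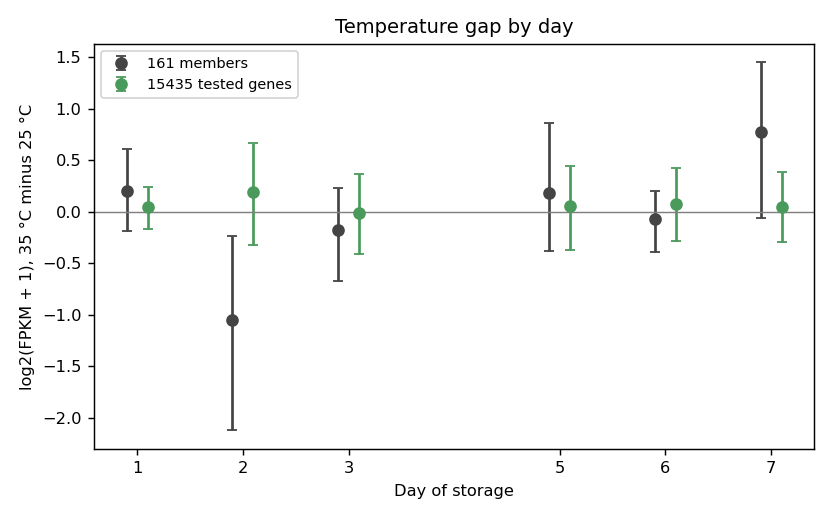
Difference between 35 °C and 25 °C in log2(FPKM + 1) on each day, as the median (circle) and quartiles (bars) over the 161 members in grey and over all 15435 tested genes in green. The members' median is -1.05 on day 2 and 0.78 on day 7, while that of the tested genes stays between -0.01 and 0.19.

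A wider set of 786 tested genes, which fell by at least 1 at both temperatures with the same limit on the difference but are no members, served for comparison. They had reached a median of 52.3% of their fall by day 2 at 25 °C and 72.4% at 35 °C. The share by day 2 was larger at 35 °C in 60.2% of them, against 84.5% of members, and the median difference was 14.9 percentage points. On day 2, 22.1% of the wider set were at least 2-fold lower at 35 °C, against 52.2% of members. The median difference in percent of day 1 FPKM retained, 35 minus 25 °C, was -10.6 percentage points on day 2, against -16.7 for members. On day 3 it was -2.46, against -2.06 for members. The smaller falls of the wider set make such shares and folds harder to compare, and whether the sets differ in pace was not tested.

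The 2 members with the largest lead at 35 °C had a peak on day 2 at 25 °C. Such a peak makes the share at 25 °C negative, so it is part of the lead that ranked them. Prupe.6G041500 stood at 11.8 FPKM on day 1, 77.5 on day 2 and 0.501 on day 3 at 25 °C, and remained at 0.531 FPKM or lower afterwards. At 35 °C it was listed at 37.2, 1.96 and 0.339 FPKM on days 1 to 3 and at 5.68 FPKM on day 5. Prupe.8G025400 had the same shape at lower levels, with 6.25, 18.1 and 0.0445 FPKM on days 1, 2 and 3 at 25 °C. Its values were 5.33 FPKM on day 1 and 0.173 on day 2 at 35 °C, and it was listed at 0 on day 3. These 2 were the members at least 2-fold higher on day 2 than on day 1 at 25 °C, where 3.82% of tested genes were.

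A few members held on longer at 35 °C. Prupe.1G316400 was listed at 9.88 FPKM on day 1 and 0.708 on day 2 at 25 °C, but at 6.43 and 7.70 FPKM on the same days at 35 °C, where it was 1.82 FPKM on day 3. Prupe.5G135700 went from 9.38 to 0.376 FPKM between days 1 and 2 at 25 °C and from 11.6 to 7.30 FPKM at 35 °C. By day 3 it was at 0.668 FPKM at 35 °C, so its delay covered 1 sampled day. The number of reads behind these low values is unknown.

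The members with the smallest share of their fall by day 3 were no lower on day 2 than on day 1. Prupe.4G155200 had 25.9, 30.0, 14.6 and 0.893 FPKM at 25 °C on days 1, 2, 3 and 5, against 21.1, 23.1, 6.88 and 2.12 FPKM at 35 °C. Prupe.1G140400 stood at 27.1, 38.8, 14.9 and 0.537 FPKM on these days at 25 °C and at 18.5, 28.5, 3.66 and 0.151 FPKM at 35 °C. Both peaked on day 2 at both temperatures, and their day 3 level was lower at 35 °C. With Prupe.1G436400 and Prupe.4G226100, named after their values were seen, they were the 4 members not 2-fold lower on day 2 at either temperature. Prupe.1G436400 was the single member at least 2-fold higher on day 2 than on day 1 at 35 °C (11.6% of tested genes were), at 26.3 against 11.4 FPKM.

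The members furthest apart on day 1 were all below 1 FPKM on day 3. Prupe.3G072200 started at 132 FPKM at 25 °C but at 23.9 FPKM at 35 °C, and was at 0.343 and 0.581 FPKM on day 3. Prupe.I003100 started at 89.6 and 31.4 FPKM, with 0.532 and 0.323 FPKM left on day 3. In the other direction, Prupe.2G246800 started at 9.09 FPKM at 25 °C but at 29.0 FPKM at 35 °C, and was at 0.316 and 0.197 FPKM on day 3. Over all members, the day 1 difference was under 1 on the log2 scale in 140 of 161.

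The fall at 35 °C was not monotonic. From day 3 to day 5 at 35 °C, 33 members were at least 2-fold higher, against 2.14% of tested genes and 7.38% of the wider set. From day 6 to day 7 at 35 °C the number was 67, against 1.65% of tested genes and 5.22% of the wider set. At 25 °C the same steps took 11 members (1.69% of tested genes) and 17 members (1.82%) up. A decline at every sampled step was found for 18 members at 25 °C and for 0 at 35 °C. The same counts over all tested genes are not given here, so the 18 and 0 cannot be set against theirs. These groups were formed after the values were seen and single columns define them, so they are described without a test.

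The 2 renewed rises shared 13 members, which is 39.4% of the 33 higher on day 5 and 19.4% of the 67 higher on day 7. Among all members, 41.6% had the day 7 rise and 20.5% the day 5 rise, so these shares were close to those of the members as a whole. The 20 members with the day 5 rise alone had medians of 42.7, 0.910, 1.77, 9.69, 0.649 and 0.876 FPKM over the sampled days at 35 °C. At 25 °C the same 20 stood at medians of 40.7, 13.2, 1.53, 2.37, 0.815 and 2.02 FPKM. Day 5 at 35 °C was thus a single high column between low ones. The 20 were picked by a rise to day 5 without a rise to day 7, so that choice set part of this shape. All but 1 of the 33 were at least 2-fold lower again on day 6, and the exception was Prupe.1G475800, named because it is the exception. The rule requires a low mean over days 5, 6 and 7, so it favours low values on days 6 and 7 in members high on day 5.

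In 4 of the 33 members of the day 5 rise, named after their values were seen, day 5 was within 2-fold of day 1. Prupe.1G129000 was listed at 54.1, 0.943, 1.86, 47.3, 2.09 and 1.32 FPKM over the 6 days at 35 °C. Prupe.4G103100 stood at 40.3, 1.15, 2.12, 31.0, 0.384 and 1.19 FPKM. The other 2 were Prupe.4G103000 and Prupe.6G347000. On day 5 at 25 °C, Prupe.1G129000 was at 2.36 FPKM and Prupe.4G103100 at 6.95 FPKM.

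The 54 members with the day 7 rise alone had medians at 35 °C of 54.9, 9.40, 4.22, 2.22, 0.963 and 8.26 FPKM over the sampled days. At 25 °C they stood at 33.2, 15.0, 5.498, 2.85, 0.961 and 1.31 FPKM. The temperatures were alike on day 6 and apart on day 7. The 54 were picked by their rise to day 7 at 35 °C, so the separation on day 7 follows largely from that choice. All 67 members with a day 7 rise were still at least 2-fold below day 1 on day 7 at 35 °C. The same held for all 161 members. Prupe.7G161100, at 747 FPKM, had the highest value of any member in that column.

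**Figure D5:**
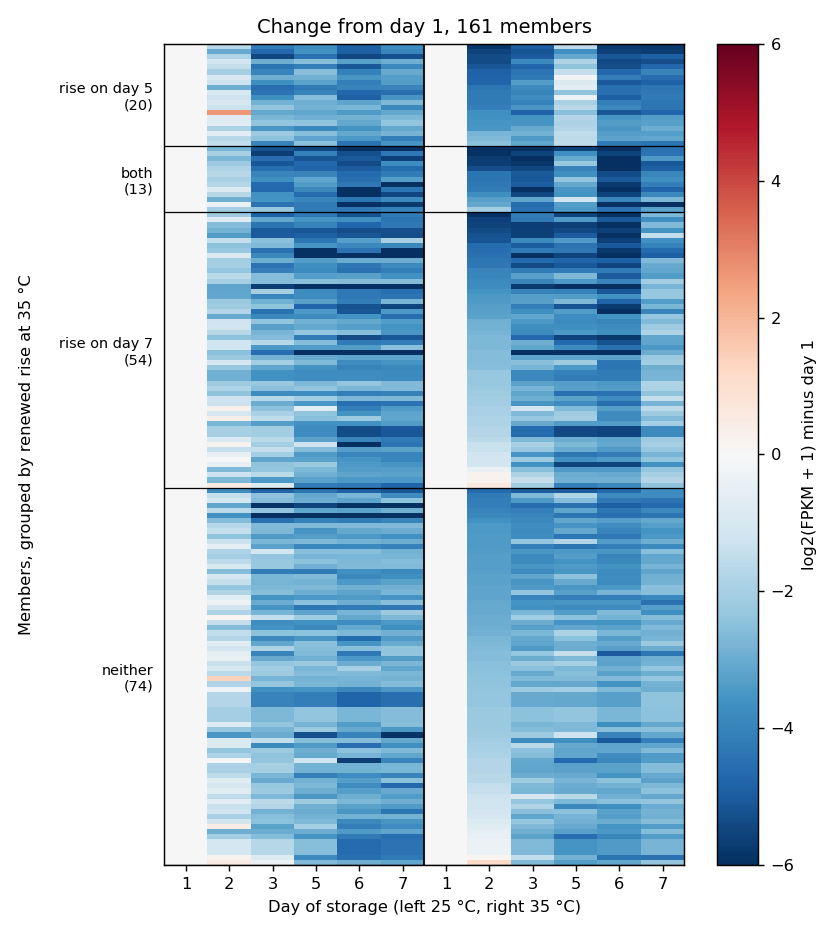
Change of log2(FPKM + 1) from day 1 for the 161 members (rows), at 25 °C (left 6 columns) and 35 °C (right 6 columns), blue for lower and red for higher than day 1, with the strongest falls sharing the darkest blue. Rows are grouped by an at least 2-fold rise at 35 °C from day 3 to day 5 (20), from day 6 to day 7 (54), at both (13) or at neither (74), and pale cells on day 5 or 7 mark the rises.

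The members were spread over all 8 numbered groups of the identifier scheme, from 0.821% of tested identifiers in group 2 to 1.29% in group 5, and 2 of 23 tested identifiers, or 8.70%, were members in the unnumbered group. Some sat next to each other in the numbering. Of the tested identifiers that directly follow a member, 21 of 161 were members, or 13.0%, against 1.04% of tested genes. In 8 of these 21 pairs the values were identical, and 13 pairs, or 8.07%, had different values. Examples are Prupe.6G156200, Prupe.6G156300 and Prupe.6G156400, with 22.2, 71.3 and 64.8 FPKM on day 1 at 25 °C, and the pair Prupe.4G103000 and Prupe.4G103100 with its shared rise on day 5. Neighbouring copies can share reads, and genome positions were not used here. In all, 13 members in 5 groups had identical values, which leaves 153 distinct profiles. Prupe.3G103100 and Prupe.3G103200 count as distinct and as a pair with different values. They differ only on day 5 at 35 °C, at 0.139 and 0.0537 FPKM, so they are close to 1 measurement.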

How the data were processed

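The authors deposited FPKM values in 2 tables, 1 per temperature, with 1 column per day. Not given in the sources used here were the genome build, the annotation, how the 2 libraries of a group were combined and whether the tables were normalised together. Cufflinks 2.1.1, TopHat2 2.0.10, Bowtie2 2.1.0, FastQC 0.10.1 and SAMtools 0.1.18 are named without roles, per the submitters' processing notes. Per the labels' protocols, ribosomal RNA was depleted before directional libraries were made.

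Each table has 29300 rows, and rows of 1 identifier were summed, which concerned 29 members. Column sums lay between 651850 and 882184 FPKM. FPKM were used as deposited with a pseudocount of 1, because the rule for members is stated so. Changes on the log2(FPKM + 1) scale understate those of low genes. An exact 0 can be a failed estimate. Read depth is unknown, so no counting interval is given. Planned tests on replicates could not be run with 1 value per group. The members, the gene lists and the rules for naming genes were chosen with earlier results of these data known. Lists by product matched 0 identifiers.

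Named genes are the 2 members at the extreme of day 1 level, fall, lead on day 2 (each way), day 1 difference (each way), share by day 3 and late level, and those at the limits of the rule. Alternatives were median-of-ratios scaling over 12194 identifiers (factors 0.922 to 1.06), a pseudocount of 0.1, other filters, other late days, separate rows and identical values counted once. The calculation was tested on simulated data. Python 3.11.15, pandas 2.3.3, numpy 2.4.6 and matplotlib 3.10.9 were used.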

Additional observations from a re-analysis of the deposited data

Results flagged for a closer look

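From day 3 to day 5 the median member moved in opposite directions, by -0.18 on the log2 scale at 25 °C and by 0.0582 at 35 °C. From day 1 to day 2, Prupe.6G041500 rose by 2.62 at 25 °C and changed by -3.69 at 35 °C. Prupe.8G025400 rose by 1.40 at 25 °C and changed by -2.43 at 35 °C. Each is a difference between temperatures with 1 value per group, and the difference was not tested.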

How the results depend on the processing

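No paired analysis was possible because each group is a single column without a number, and no replicate could be left out. The 161 members became 166 after rescaling (158 shared with the 161), 182, 139 and 164 without day 5, 6 or 7 in the late level (155, 132 and 149 shared), 175 with rows kept apart, and 395 with a pseudocount of 0.1 (127 shared), under which low genes reach the limit more easily. The median lead of 35 °C on day 2 stayed between 28.7 and 47.9 percentage points over its 8 alternatives. On day 3 it was 23.3 without day 6 and 3.47 with day 6 as the late level. With a pseudocount of 0.1 the counts on day 3 were 45 lower and 16 higher at 35 °C, 25, 37 and 18 were lower at 35 °C on days 5, 6 and 7, 23 were higher on day 6, the median difference on day 7 was 1.29, and 36 members were higher on day 7 than on day 6 at 25 °C. The renewed rises at 35 °C then held 46 and 99 members, and 33 and 64 after rescaling. After rescaling, the difference in share on day 2 moved by over 1.5 times in Prupe.1G140400, Prupe.4G155200, Prupe.5G073200 and Prupe.8G109700, with no change of sign in any of the 14 named members. With no filter, percentages of all genes on day 2 were lower, such as 3.92% in place of 6.72%. The alternatives for the renewed rises, the late level from day 6 alone and the comparison by percent of FPKM were chosen after seeing the data. Causes were not tested. Read depth, and what it limits, is unknown, and on day 6 87 members at each temperature were below 1 FPKM.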

Other observations

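The 54 genes that fell by at least 2.5 at both temperatures but exceeded the limit on the difference were mostly lower at 35 °C. In 45 of them the mean over days 2 to 7 was lower at 35 °C and in 9 it was higher. The 45 had a median of 172 FPKM on day 1 at 25 °C, above the members' 32.3 FPKM, then 97.1 on day 2, 19.0 on day 3 and 7.97 FPKM by day 6. At 35 °C their medians were 134, 11.4, 6.10 and 1.498 FPKM for the same days. The 9 others stood at a median of 53.3 FPKM on day 1 and 5.496 on day 2 at 25 °C, and at 49.7 and 21.2 FPKM at 35 °C.

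Falls of at least 2.5 at 1 temperature alone were listed for 156 identifiers at 25 °C and 170 at 35 °C, beside 215 with such falls at both. The 156 changed by a median of -2.83 at 25 °C and -1.69 at 35 °C. The 170 changed by -1.76 at 25 °C and -2.88 at 35 °C, and their day 2 medians were 15.8 FPKM (25 °C) and 4.74 FPKM (35 °C). The rule chose these sets by their falls.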
